A study of Mus musculus with 6 samples.

Results

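The TNF superfamily ligands are cytokines made as membrane proteins, many of which are also released from the cell, and dendritic cells (DCs) use them to instruct lymphocytes. BAFF (gene Tnfsf13b) and APRIL (Tnfsf13) keep B cells and plasma cells alive, OX40 ligand (Tnfsf4), 4-1BB ligand (Tnfsf9) and CD70 costimulate T cells, TNF and the lymphotoxins (Tnf, Lta, Ltb) act in inflammation and in the architecture of lymph nodes, TRAIL (Tnfsf10) can trigger cell death and TWEAK (Tnfsf12) acts in tissue repair. Ligands of this family bind as trimers to receptors of the TNF receptor superfamily, which signal through TRAF adaptors to NF-kB or, for some receptors, through death domains to caspases.

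The 10 ligands named above were taken as a fixed set of genes and matched by symbol to the probes of an Illumina mouse bead array, out of 5901 named genes that were measured in all. A probe was called detected on an array when its detection p-value was under 0.05, and measured when it was detected on at least 3 of the 6 arrays. By symbol, 9 of the 10 genes had a probe and 4 were measured, namely Tnfsf13b, Tnf, Ltb and Cd70. Tnfsf13 was not analysed here. DCs were sorted by flow cytometry from peripheral lymph nodes of mice gavaged with broad-spectrum antibiotics over 10 days (3 arrays) and of mice labelled as having no treatment (3 arrays). The labels name no gavage for the untreated mice, so that the drugs and the gavage itself cannot be told apart, and they give no strain, sex or age, no agent by name and no sorting gate. The arrays are called replicates without a word on separate animals, so the p-values rest only on variation among these 6 samples, some or all of which may be technical.

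Between 6876 and 7674 of 25697 probes were detected per array. The DC genes Itgax (CD11c) and Zbtb46 were detected on all 6 arrays, whereas Flt3, the receptor for the DC growth factor, was detected on 0. Levels are given as log2 of background-corrected, quantile-normalized intensity, and a log2 fold change is antibiotics minus untreated. Each probe has its own brightness, so levels are compared between arrays and not between genes. For a single gene, an exact two-sided permutation test in this design has 0.1 as its smallest p, and tests therefore come from limma, fitted to all 6331 genes and unnamed probes, with Benjamini-Hochberg adjustment over all of them. Within groups, the SD of log2 levels had a median of 0.22 over genes.

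No ligand passed the test, and neither did any other gene, so that 0% of the 6331 were called at an adjusted p of 0.05, with 490 at an unadjusted p under 0.05. Tnfsf13b was the ligand with the greatest difference, at a log2 fold change of 0.87 on its brighter probe and 0.79 on its other probe. Tnf and Ltb lay below the untreated level, at -0.44 and -0.24, and Cd70 was close to it at 0.068. Of the 4 measured ligands, 2 were above and 2 below, with a median of -0.084, where 3391 of all 6331 lay above and the median was 0.017. Ltb, 1 of the 2 below, passed the detection filter through untreated arrays alone, so that its direction is not independent of the filter. At an unadjusted p under 0.05, 1 ligand was higher and 0 were lower, where the shares over all genes were 3.41% and 4.33%. In 1 ligand all antibiotics arrays lay above all untreated arrays and in 0 they lay below, where the shares over all genes were 7.12% and 6.62%.

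**Figure D1:**
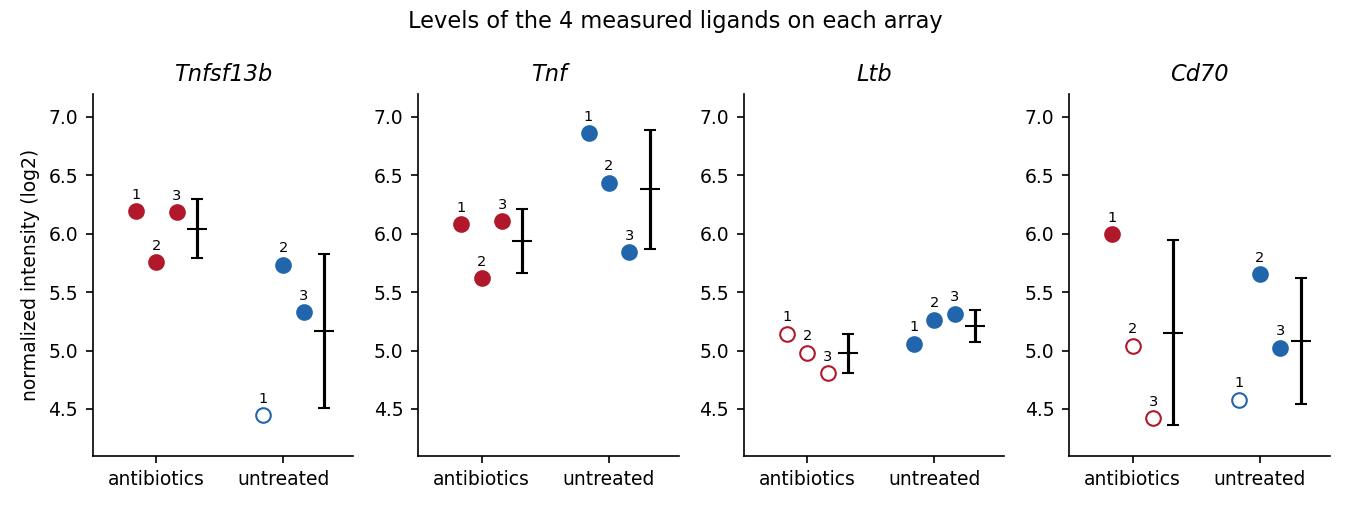
Normalized log2 intensity (y axis) of the 4 measured ligands on each array, with antibiotics on the left and untreated on the right of each panel. Numbers are replicates, filled points were detected and open points were not, and bars are the mean ± SD of 3 arrays. Only for Tnfsf13b do the groups not overlap, by a narrow gap between antibiotics replicate 2 at 5.76 and untreated replicate 2 at 5.73.

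Tnfsf13b encodes BAFF, which binds the receptors BAFF-R, TACI and BCMA on the B lineage and is made mainly by myeloid cells and stroma. Its brighter probe had an intensity before normalization of 135.5, 123.5 and 149.1 on the antibiotics arrays, against 83.9, 132.4 and 104.9 on the untreated arrays. Untreated replicate 1 was not above background, and untreated replicate 2 reached the range of the antibiotics arrays. The second probe gave 125.0, 114.6 and 132.5 with antibiotics, against 81.8, 118.5 and 100 without, so that both probes ranked the untreated arrays alike. In the authors' deposited normalized table the brighter probe is listed at 49.4, 33.0 and 49.0 with antibiotics, against 0.3, 32.2 and 20.7 without. After normalization the brighter probe stood at log2 levels of 6.19, 5.76 and 6.18 on antibiotics arrays, against 4.45, 5.73 and 5.33 on untreated arrays.

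The mean of Tnfsf13b was 6.04 ± 0.25 with antibiotics and 5.17 ± 0.66 without (SD, n = 3 each, log2). The log2 fold change was 0.87 (SE 0.31, 95% interval 0.18 to 1.57), which is 1.83-fold, with an unadjusted p of 0.0196 and an adjusted p of 0.565 in limma. The probe was detected on 3 of 3 antibiotics arrays and on 2 of 3 untreated arrays, and the untreated array on which it was not detected enters the mean at its background-corrected value. The SD between untreated arrays, 0.66, was above the median SD over all genes. The value was 0.51 without untreated replicate 1, 0.38 without background correction and 0.49 with an offset of 50. The unadjusted p in limma was above 0.05 with no filter on dim probes (0.0531), without antibiotics replicate 1 (0.0643) and without antibiotics replicate 3 (0.0520). Tnfsf13b is not among the genes detected on all 6 arrays.

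The control regions of the measured ligands Tnfsf13b, Tnf and Ltb are shown, and none is shown for Cd70. Any link between these sequences and the ligands' values was not tested. Each run below holds the 250 bases before an annotated transcription start, 5′ to 3′ on the gene's strand, from RefSeq on build GRCm38.p6. The study's files name no build. Capitals mark matches, on either strand, to 4 motifs: the interferon-response core GAAANNGAA, the interferon-gamma-activated site TTCNNNGAA, the AP-1 site TGANTCA and the NF-kB consensus. No 2 matches overlap in these windows. The Tnfsf13b window is chr8:10006383-10006632 (plus strand), the Tnf window chr17:35202008-35202257 (minus strand) and the Ltb window chr17:35194257-35194506 (plus strand).
Tnfsf13b: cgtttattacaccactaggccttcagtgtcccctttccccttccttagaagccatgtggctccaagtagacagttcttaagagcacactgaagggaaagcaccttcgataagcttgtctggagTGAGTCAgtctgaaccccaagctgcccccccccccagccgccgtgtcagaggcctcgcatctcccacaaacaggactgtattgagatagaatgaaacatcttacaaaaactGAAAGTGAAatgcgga
Tnf: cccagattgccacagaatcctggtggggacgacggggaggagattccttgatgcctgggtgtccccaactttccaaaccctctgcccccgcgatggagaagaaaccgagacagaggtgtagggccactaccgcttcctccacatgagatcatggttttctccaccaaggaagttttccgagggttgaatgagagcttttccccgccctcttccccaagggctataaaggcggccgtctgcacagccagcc
Ltb: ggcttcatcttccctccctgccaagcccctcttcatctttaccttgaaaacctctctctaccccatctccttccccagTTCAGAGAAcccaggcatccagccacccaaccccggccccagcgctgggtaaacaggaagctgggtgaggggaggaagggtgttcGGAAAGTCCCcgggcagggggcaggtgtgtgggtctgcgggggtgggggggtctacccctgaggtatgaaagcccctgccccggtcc
The Tnfsf13b window held 1 interferon-response core, 16 to 8 bases before the start, and 1 AP-1 site, 127 to 121 bases before it. A second annotated Tnfsf13b start, whose window begins at 10006217, had 0 matches. The Ltb window held 1 NF-kB match, 87 to 78 bases before the start, and 1 interferon-gamma-activated site. The Tnf window had 0 matches to these letters. Over 32851 promoter windows of this length, 7.13% held the interferon-response core, 7.02% the interferon-gamma-activated site, 6.75% the AP-1 site and 3.9% the NF-kB consensus. A match describes letters and not a bound factor.

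Of the other B cell ligands, APRIL is encoded next to TWEAK, and transcripts that join both genes are annotated as Tnfsfm13. The Tnfsfm13 probe, looked at after the ligands, was detected on 0 arrays, with intensities of 84.3 to 88.6 with antibiotics and 86.7 to 92.7 without. The lowest intensity of any detected probe ranged from 97.4 to 108.4 between arrays, so that these values carry no level.

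Tnf, the founding cytokine of the family, was detected on all 6 arrays. Its intensity was 131.6, 118.4 and 144.7 with antibiotics, against 176.7, 174.9 and 121.4 without. Normalized log2 levels were 6.08, 5.62 and 6.11 on antibiotics arrays and 6.86, 6.43 and 5.84 on untreated arrays. Untreated replicates 1 and 2 stood above all antibiotics arrays and untreated replicate 3 lay among them. Means were 5.94 ± 0.27 with antibiotics and 6.38 ± 0.51 without (SD, n = 3 each), a log2 fold change of -0.44 (SE 0.26, 95% interval -1.04 to 0.15, adjusted p = 0.738 in limma). Single untreated arrays decided the size, with -0.20 without untreated replicate 1 and -0.71 without untreated replicate 3, and it was -0.28 without antibiotics replicate 2 and -0.23 without background correction.

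Ltb and Lta, neighbours of Tnf in the genome, encode lymphotoxin beta and alpha, which form a membrane complex that maintains lymphoid stroma. Ltb was dim, with intensities of 105.0, 100.2 and 98.4 with antibiotics, against 99.9, 114.6 and 104.6 without. It was detected on 0 of 3 antibiotics arrays and on all 3 untreated arrays, although the intensities overlap, since the limit of detection differs between arrays. Normalized log2 levels were 5.14, 4.98 and 4.80 with antibiotics and 5.06, 5.26 and 5.32 without, with means of 4.98 ± 0.17 and 5.21 ± 0.14 (SD, n = 3 each). The log2 fold change was -0.24 (SE 0.15, 95% interval -0.59 to 0.11, adjusted p = 0.763 in limma). Since the probe was not above background on any antibiotics array, the antibiotics values give only a bound on its level there, and the interval takes in no difference. The fold change was -0.084 without background correction, -0.12 with an offset of 50 and -0.15 without antibiotics replicate 3. Lta was detected on 1 untreated array by its brighter probe, at an intensity of 100.1 on untreated replicate 1, and by its other probe on 0.

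Among the costimulatory ligands, only Cd70 was measured. CD70 is the ligand of CD27 on T cells. Its intensity was 128.1, 101.6 and 84.7 with antibiotics, against 88.3, 129.0 and 97.8 without, and it was detected on 1 antibiotics array and 2 untreated arrays. Normalized log2 levels of 5.995, 5.04 and 4.42 with antibiotics and 4.58, 5.65 and 5.02 without span the same range, and 1 bright array stood in each group. Means were 5.15 ± 0.79 and 5.08 ± 0.54 (SD, n = 3 each), and the log2 fold change was 0.068 (SE 0.40, 95% interval -0.84 to 0.98, adjusted p = 0.979 in limma). The interval takes in differences of nearly 2-fold either way (0.558 to 1.97 times the untreated level). The sign turned to -0.36 without antibiotics replicate 1, to -0.19 without untreated replicate 1 and to -0.43 with array weights, while leaving out antibiotics replicate 3 gave 0.43 and leaving out untreated replicate 2 gave 0.35.

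Tnfsf9, which encodes 4-1BB ligand, was detected on 0 arrays, with intensities of 80.7 to 86.6 with antibiotics and 87.8 to 88.9 without. Tnfsf4, which encodes OX40 ligand, a signal for helper T cells, was also detected on 0, at 80.2 to 83.6 with antibiotics and 75.5 to 81.0 without. The death ligand gene Tnfsf10 had 80.3 to 82.6 with antibiotics and 76.0 to 79.7 without, and the TWEAK gene Tnfsf12 had 77.9 to 83.7 with antibiotics and 79.5 to 82.4 without, both detected on 0 arrays. None of these 4 signals was above background on any array, and no fold change is given.

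**Figure D2:**
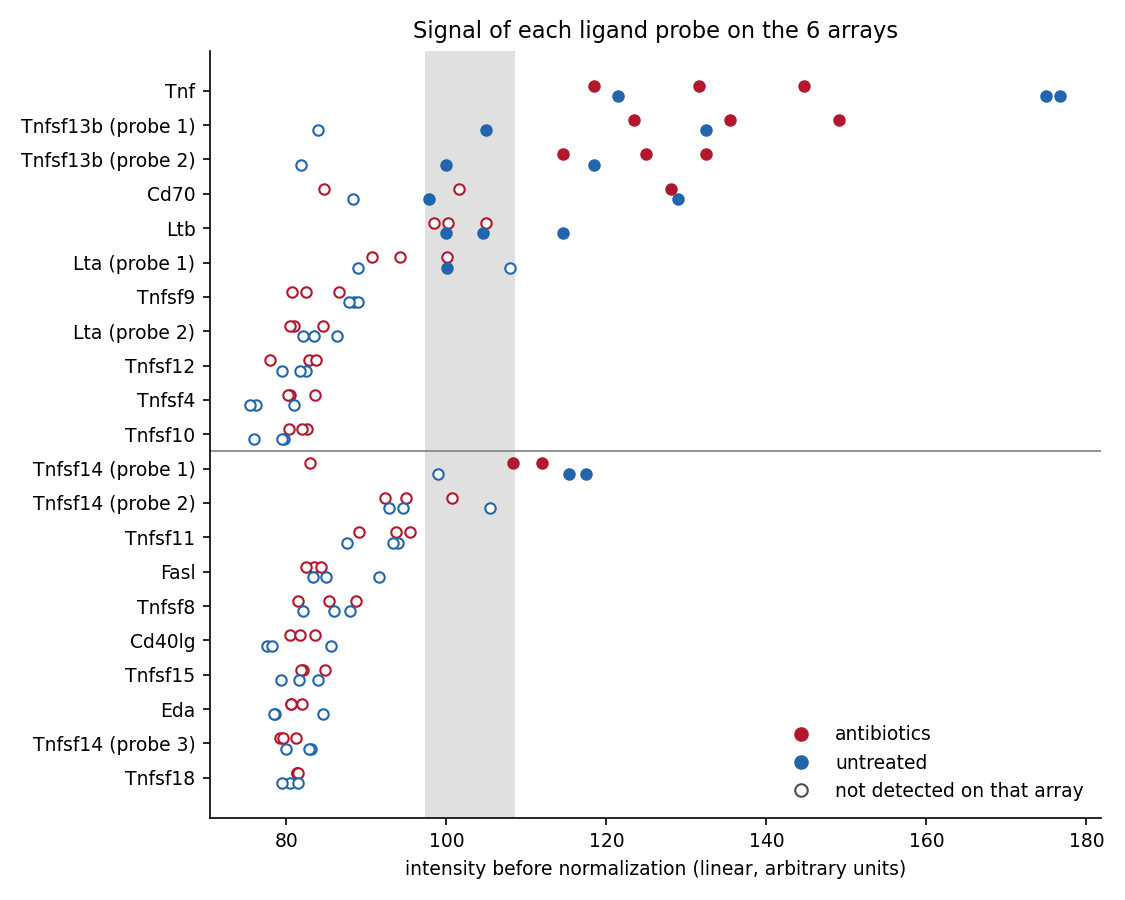
Intensity before normalization (x axis, linear) of every ligand probe on the 6 arrays, with antibiotics drawn above untreated in each row. Filled points were detected and open points were not, and the grey band spans the lowest intensity of any detected probe on the 6 arrays, 97.4 to 108.4. The set of 10 stands above the line and other ligands of the family below it, and most probes lie left of the band.

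Of the 8 further ligands of the family, all had a probe and 1 was measured. Tnfsf14 encodes LIGHT, a ligand of HVEM and the lymphotoxin beta receptor. Its other probes were detected on 0 arrays, and its brightest probe on 2 antibiotics and 2 untreated arrays. Its log2 levels were 5.27, 4.39 and 5.29 with antibiotics and 5.01, 5.35 and 5.66 without, with a log2 fold change of -0.36 (SE 0.27, and -0.53 to -0.062 over 15 alternative settings). The groups overlapped. Tnfsf8, Tnfsf11, Tnfsf15, Tnfsf18, Cd40lg, Fasl and Eda were detected on 0 arrays.

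Most of the receptors that the 10 ligands bind had no detected probe, and an undetected probe does not show that its gene is not expressed. Of 15, 3 were measured, 11 were detected on 0 arrays and Tnfrsf12a, the TWEAK receptor gene, on 1. All 3 receptors for BAFF and APRIL (Tnfrsf13c, Tnfrsf13b and Tnfrsf17) were among the 11, as were the TNF receptor genes Tnfrsf1a and Tnfrsf1b, the lymphotoxin receptor gene Ltbr and the CD70 receptor gene Cd27. Of the 3 measured, 1 was lower at an unadjusted p under 0.05, where the share over all genes was 4.33%.

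That receptor gene was Tnfrsf9, which encodes 4-1BB. Its other probe was detected on 0 arrays. On its brighter probe, log2 levels were 4.78, 4.90 and 5.11 with antibiotics and 5.41, 5.54 and 5.11 without, detected on 1 and on 3 arrays. The highest antibiotics array and the lowest untreated array were level, and the log2 fold change was -0.42 (SE 0.17, unadjusted p = 0.0339 and adjusted p = 0.605 in limma). The value was -0.15 without background correction and -0.22 with an offset of 50. The unadjusted p in limma was above 0.05 under these 2 settings, with median scaling (0.0837), with the replicate block (0.0669) and in 4 of the 6 fits that left out an array (up to 0.13). Tnfrsf4, which encodes OX40, was detected on all 6 arrays, at intensities of 337.5, 385.6 and 446.8 with antibiotics, against 577.2, 559.8 and 396.1 without. After normalization it stood at 8.31, 8.31 and 8.46 with antibiotics and at 9.07, 8.64 and 8.47 without. The groups thus touched without overlapping, although their intensities before normalization overlap. Over the 3 measured receptors, the groups did not overlap in 0 higher genes and 1 lower gene, where the shares over all genes were 7.12% and 6.62%. The log2 fold change of Tnfrsf4 was -0.37 (SE 0.18, adjusted p = 0.683 in limma), and -0.19 without untreated replicate 1. Tnfrsf10b, the TRAIL receptor gene, was detected on all 6 arrays by its brightest probe and on 0 by each of its other probes. The brightest probe had means of 6.45 in both groups. Its log2 fold change was 0.0051 (SE 0.19), and the sign turned under 5 alternative settings. The ligands of Tnfrsf9, Tnfrsf4 and Tnfrsf10b were each detected on 0 arrays.

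Among 13 other receptors of the family, 7 were measured and 5 of these lay below the untreated level, with a median of -0.099. Cd40, the DC receptor for T cell help, stood at 10.98 ± 0.18 with antibiotics and 11.59 ± 0.09 without (SD, n = 3 each), and Tnfrsf18, which encodes GITR, at 5.84 ± 0.22 and 6.37 ± 0.06. Their log2 fold changes were -0.61 (SE 0.15) and -0.53 (SE 0.16), and other probes gave -0.33 for Cd40 and -0.50 for Tnfrsf18. Tnfrsf21, the gene of death receptor 6, lay above the untreated level at 0.36 (SE 0.13), and Edar, the ectodysplasin receptor gene, at 0.19 (SE 0.16). These 4 were named for their smallest p. Over the list, the groups did not overlap in 1 higher and 2 lower genes of the 7, where the shares over all genes were 7.12% and 6.62%, and none passed adjustment. Edar was 0.092 without untreated replicate 2, 0.11 without antibiotics replicate 1 and 0.068 without background correction, where Tnfrsf18 was -0.26 and Tnfrsf21 was 0.23.

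Downstream of the receptors, 19 of 30 signalling genes were measured, of which 14 lay below the untreated level and 5 above, with a median of -0.12 and 0 past an adjusted p of 0.05 in limma. At an unadjusted p under 0.05, 0 were higher and 1 of 19 was lower, where the shares over all genes were 3.41% and 4.33%. Traf1, an adaptor that NF-kB itself induces, stood at -0.57 (SE 0.20), and Map3k14, the kinase of the noncanonical NF-kB route that BAFF, CD40 and lymphotoxin receptors use, at -0.28 (SE 0.15). Casp8, the initiator caspase of death receptors, stood at 0.35 (SE 0.17, and 0.097 with its other probe) and Birc3, a ubiquitin ligase that restrains Map3k14, at 0.30 (SE 0.15). These 4 were named for their smallest p. Over the list, the groups did not overlap in 2 higher and 3 lower genes of the 19, the 4 named and Rela (-0.15), where the shares over all genes were 7.12% and 6.62%. Casp8 was 0.22 without untreated replicate 3 and 0.19 without background correction, and Birc3 was 0.20 without untreated replicate 2 and 0.12 without background correction.

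Of 14 genes for the shedding of ligands and the control of TNF mRNA, 9 were measured. Of these, 7 stood higher with antibiotics and 2 lower, and their median log2 fold change was 0.11. In limma, 0 of the 9 had an unadjusted p under 0.05, where the shares over all genes were 3.41% higher and 4.33% lower. The groups did not overlap in 1 higher gene, Elavl1, and in 0 lower genes, where the shares over all genes were 7.12% and 6.62%. Elavl1, which encodes the mRNA-stabilising protein HuR, stood at 0.27 (SE 0.13) and Zfp36, which encodes tristetraprolin, a protein that destabilises TNF mRNA, at 0.17 (SE 0.14, and 0.078 without antibiotics replicate 1 or 0.26 with median scaling). Rhbdf1, a partner of the TNF-shedding protease ADAM17, stood at 0.21 (SE 0.24, and -0.0018 without antibiotics replicate 3 or 0.45 without antibiotics replicate 2, and 0.076 when untreated replicate 2 was left out). Sppl2b, an intramembrane protease that cleaves the TNF stub, stood at -0.15 (SE 0.16). Leaving out antibiotics replicate 2 gave -0.23 for Sppl2b, and leaving out an untreated array gave -0.077 (replicate 1), -0.096 (replicate 2) or -0.27 (replicate 3).

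**Figure D3:**
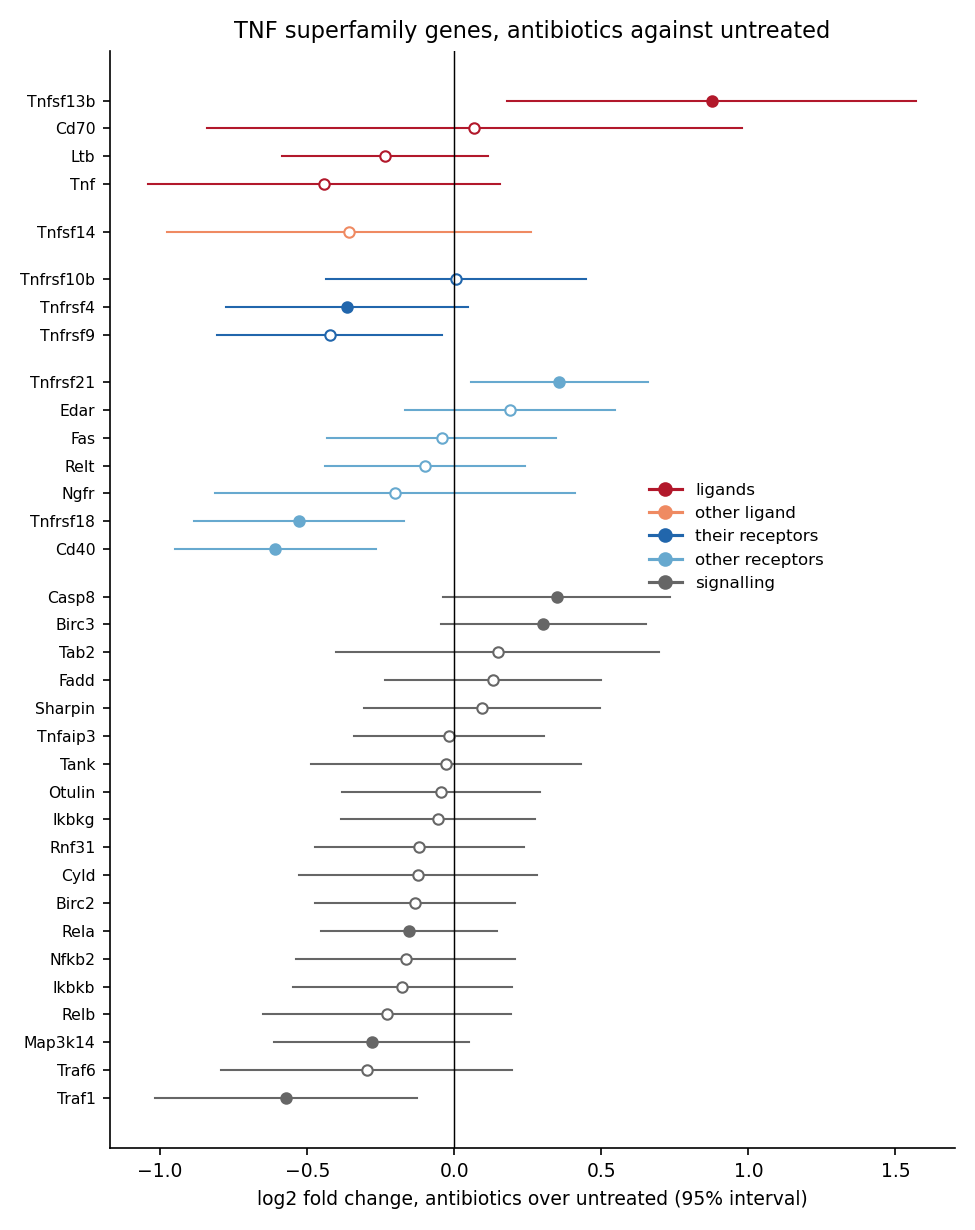
Log2 fold change of antibiotics over untreated (x axis, with 95% intervals from limma) for the measured genes of the family, ordered by value within each role. Filled points are genes whose groups did not overlap. Tnfsf13b at 0.87 lies farthest to the right, and Cd40 at -0.61 and Traf1 at -0.57 farthest to the left.

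Type I interferon can induce both Tnfsf13b and Tnfsf10. Of 33 interferon-stimulated genes, 19 were measured and all 19 lay below the untreated level (median -0.37), where 3391 of all 6331 lay above it. The list was put together with earlier results of these arrays known, so that its direction is not an independent result. Ifit3 at -1.21, Ifi27l2a at -0.91, Oas1g at -0.79 and Rsad2 at -1.10 were named for their smallest p, and Mx2 was closest to the untreated level at -0.057. Tnfsf13b lay above the untreated level, and Tnfsf10 had no level. Whether Tnfsf13b differs from that list was not tested.

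Markers of cells that can make BAFF are given beside its value. In bulk samples, fewer cells of a type and less RNA per cell cannot be told apart. Of 18 macrophage and monocyte markers, 8 were measured and 7 of these lay above the untreated level (median 0.22). Highest were Lyz2 at 0.54, Adgre1 at 0.33 and Lyz1 at 0.32, whose other probes gave 0.14, 0.22 and 0.67. C1qa at 0.029 and C1qb at 0.018 were close to the untreated level, and Cd14 lay below it at -0.080. The summed background-corrected intensity of the 8 was 9773 to 10720 with antibiotics and 7383 to 9550 without. Most of it came from Lyz1 (log2 levels of 13.02 and 12.70), while Mertk, Fcgr1, Ccr2, Siglec1, Marco and C1qc were detected on 0 arrays. On untreated replicates 1 to 3 these sums were 7383, 7736 and 9550, against Tnfsf13b levels of 4.45, 5.73 and 5.33. Among them replicate 1 was lowest in both, while replicate 2 was highest for Tnfsf13b and replicate 3 for the sum. All 9 measured of 14 cDC1 markers lay above the untreated level. Their sums were 3286 to 3315 with antibiotics and 2505, 2809 and 2909 on untreated replicates 1 to 3. Of 12 stromal and endothelial markers, 1 was measured and 8 were detected on 0 arrays, Pdpn among them. The part of these cells in the Tnfsf13b value was not tested.

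Lymphocytes can be a source of Ltb, Lta, Tnf and Cd70. Of 13 B cell markers, 4 were measured, with sums of 269.7 to 317.1 with antibiotics and 313.8 to 366.7 without. Below the untreated level were 3, Fcmr at -1.06, Cd22 at -0.79 and Cd79b at -0.057, while Fcrla lay above it at 0.43 (0.32 and 0.29 with its other probes). Cd79a, Ms4a1, Pax5 and 4 others were detected on 0 arrays. Of 12 T cell markers, 2 were measured, Cd8b1 and Cd5, with sums of 132.4 to 189.9 with antibiotics and 128.8 to 189.1 without, while Cd3e, Cd3d and Cd3g were detected on 0. Of 10 markers of NK and innate lymphoid cells, 3 were measured, with sums of 784.1 to 943.1 with antibiotics and 821.2 to 955.5 without, and Ncr1 was detected on 0. The part of these cells in the ligands' values was not tested. Other cells were as follows. All 5 measured of 10 plasmacytoid DC markers lay below the untreated level, with sums of 664.3 to 760.5 with antibiotics and 808.7 to 1016 without. Bst2 among them is also on the interferon list. Of 8 plasma cell markers, 4 were measured and 3 of these lay above it, with sums of 1186 to 1436 with antibiotics and 959 to 1086 without. Irf4 among the 3 is also on the cDC2 list, and Sdc1, Jchain, Prdm1 and Derl3 were detected on 0 arrays. Of 11 cDC2 markers, 7 were measured, with sums of 1240 to 1689 with antibiotics and 1455 to 1793 without. Of 6 Langerhans cell markers, 4 were measured, with sums of 483.4 to 493.9 with antibiotics and 532.5 to 629.4 without. Even so, 3 of the 4 lay above the untreated level (median 0.15), and Pkp3 alone lay below it at -0.85. Cd207 among the 3 stood at 0.74 (0.45 with its other probe), with groups that overlapped. Neutrophil markers, of which 2 of 10 were measured, gave 61.8 to 73.35 with antibiotics and 54.65 to 69.71 without, with S100a8 and S100a9 detected on 0 arrays.

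The genes with the nearest profile to Tnfsf13b were found by the root mean square difference between log2 levels, each gene centred on its mean over the 6 arrays. They were Sptb (0.16), a spectrin of the membrane skeleton, Slc6a12 (0.19), a betaine and GABA transporter, Cxcl9 (0.19), a chemokine for activated T cells, Pigf (0.20), of GPI anchor synthesis, and Egr2 (0.21), a zinc finger transcription factor, against a median of 0.62 over all named genes. In all 5, untreated replicate 1 was the lowest array, which follows from choosing them by the Tnfsf13b profile. For Sptb it stood at 4.47, with 5.74 and 4.996 on the other untreated arrays and 5.93 to 6.21 with antibiotics. In Cxcl9, with a log2 fold change of 0.87 like Tnfsf13b, the gap between the closest arrays of the groups was wider, at levels of 9.80, 9.44 and 9.66 with antibiotics, against 8.36, 9.02 and 8.91 without.

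**Figure D4:**
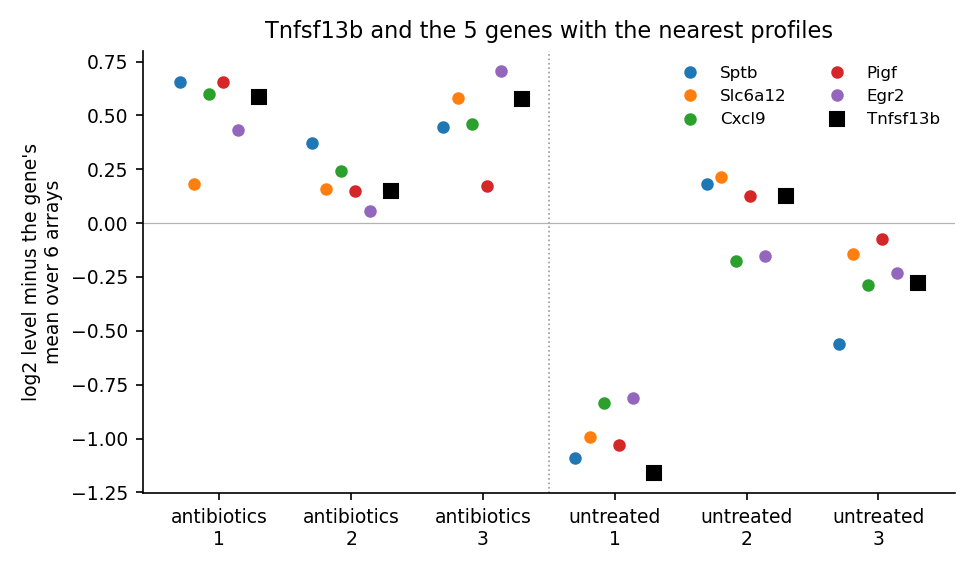
Log2 level of Tnfsf13b (squares) and of the 5 genes nearest to it (circles), each minus its mean over the 6 arrays (y axis), by array (x axis). All 6 genes are lowest on untreated replicate 1, which follows from choosing the 5 by their likeness to Tnfsf13b.

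For Tnf, the nearest profiles were those of Phldb1, Bcorl1, Specc1l, Zfp94 and Abhd5, at root mean square differences of 0.099 to 0.12 against a median of 0.45. In each of them untreated replicate 1 was the highest array, as it was for Tnf, which follows from choosing them by its profile. By the 2 ligands' own levels, untreated replicate 1 held the lowest Tnfsf13b level and the highest Tnf level of the 6 arrays.

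**Figure D5:**
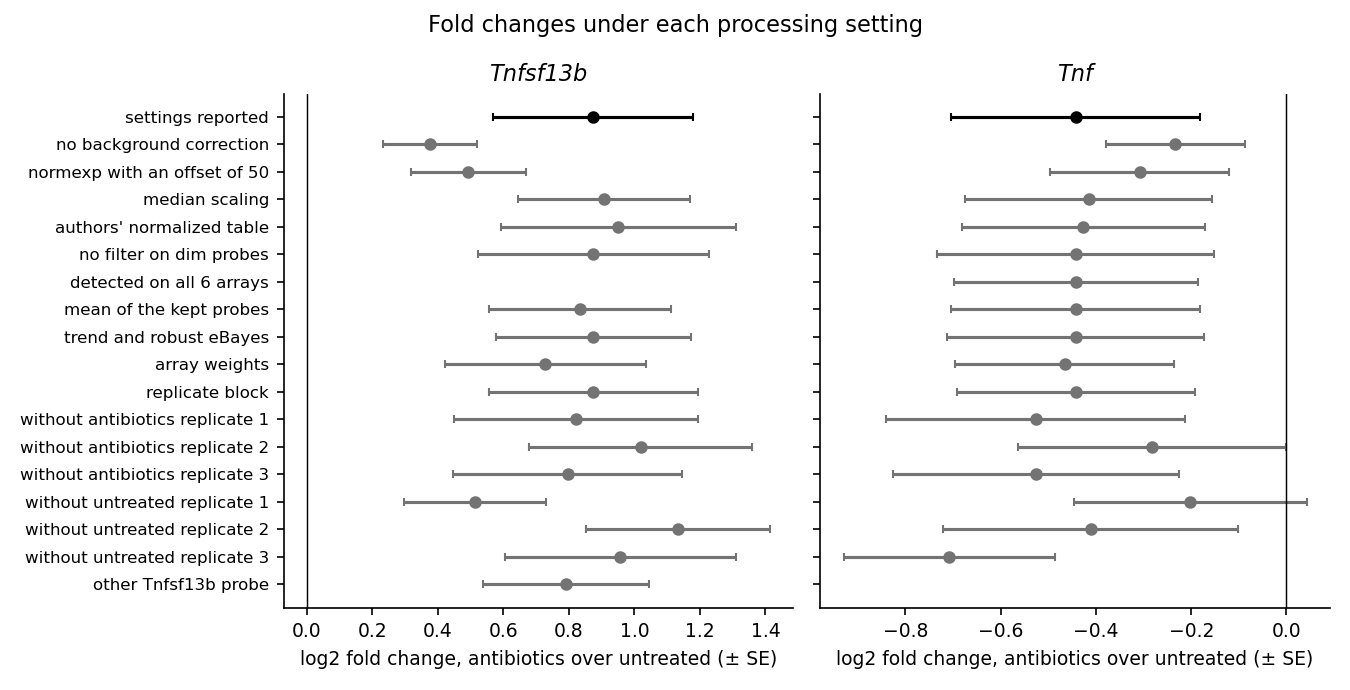
Log2 fold change ± SE (x axis) of Tnfsf13b on the left and Tnf on the right under each processing setting (y axis). Tnfsf13b runs from 0.38 to 1.13 and has no value among genes detected on all 6 arrays, and Tnf runs from -0.71 to -0.20.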

How the data were processed

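DCs sorted from peripheral lymph nodes were profiled on 6 Illumina bead arrays, 3 per group. The deposited non-normalized table holds the probe intensity of each array and a detection p-value beside it, per the file headers. The authors' deposited normalized table holds intensity on a linear scale with values below 0, by a method not given in the sources used here, and served as an alternative. RNA was isolated with a QIAGEN kit and labelled with biotin, per the labels' protocols. Genes were named from the platform annotation, which named a gene for 23978 of 25697 probes and none for 1719.

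Intensities were corrected with normexp by detection p-values (limma 3.58.1 in R 4.3.3, function neqc, offset 16), quantile-normalized and put on the log2 scale. Probes detected at p under 0.05 on at least 3 of 6 arrays were kept (7507), and the brightest kept probe stood for a gene. The 6331 resulting genes and unnamed probes were fitted with lmFit and eBayes, with Benjamini-Hochberg adjustment across the whole set. The 3 arrays a group limit the precision. On simulated data with 200 changed genes the fit was tested before use. Fold changes are dampened in dim probes by the offset.

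Members and gene lists were chosen with earlier results of these data known. Named genes were all ligands with every probe, further ligands and receptors where measured, up to 4 genes per other list by smallest unadjusted p, and the 5 nearest profiles to Tnfsf13b and to Tnf. Alternatives changed the background correction, normalization, source table, filter, probe choice, variance model, array weights and replicate block, and left out each array. Promoter sequences are from RefSeq (GRCm38.p6), found for 6 of the 10 ligands.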

Additional observations from a re-analysis of the deposited data

How the results depend on the processing

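No gene passed an adjusted p of 0.05 under any of the 16 alternatives (limma, smallest adjusted p 0.094 with array weights to 0.686 without untreated replicate 1), the ligands included. Of 24 named genes, 21 kept their direction under all alternatives run. The number at an unadjusted p under 0.05, 490, was 1094 of 18312 genes without the filter on dim probes and 340 to 547 when an array was left out. Genes whose groups do not overlap numbered 870, 2132 without the filter, where more genes were tested, and 1343 to 1633 when an array was left out, where fewer arrays are compared. Cd70 turned sign to -0.43 with array weights and ran from -0.36 to 0.43 when an array was left out. Tnfrsf10b stood at -0.00080 without background correction, at -0.078 with array weights and at -0.16 to 0.15 when an array was left out. Rhbdf1 ran from -0.0018 to 0.45 when an array was left out. The cause was not tested. Requiring detection on all 6 arrays gave no value for Tnfsf13b, Ltb, Cd70, Tnfsf14, Tnfrsf9 and Edar.

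Tnfsf13b was 0.79 on its other probe, an alternative chosen after seeing the data. With the replicate number as a block its log2 fold change was again 0.87 (unadjusted p = 0.0332, adjusted p = 0.721 in limma), 417 genes had an unadjusted p under 0.05 and 0 passed adjustment. Same-numbered arrays did not deviate together, with correlations of -0.046, -0.060 and -0.15, and no array correlated best with its own number. With 3 arrays per group these correlations cannot show whether the samples were paired. Most ligand probes lie near background, which limits what their fold changes can show.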
